A study of Mus musculus with 11 samples.

Results

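The Cyp2 genes encode the largest family of drug- and steroid-metabolising cytochrome P450 enzymes of the mouse, and 45 of the 30142 genes with a row of a single symbol on the array belonged to it. Members were taken by name: a row counted when the platform annotation gave it 1 gene symbol made of Cyp2, a letter and a number, with pseudogenes left out. The 45 genes fell into 13 subfamilies, of which Cyp2c held 14, Cyp2d 8, Cyp2j 7, Cyp2b 5 and Cyp2a 3. Cyp2e1, Cyp2f2, Cyp2g1, Cyp2r1, Cyp2s1, Cyp2t4, Cyp2u1 and Cyp2w1 were the only rows of theirs. Cyp2a5, Cyp2c29 and Cyp2d11 have no value here, because the 3 rows that hold them also carry another symbol.

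RNA came from hepatocytes of 12-week-old male mice of 4 genotypes and was hybridised to 11 expression arrays. Wildtype mice (2 arrays) came from the floxed Nemo line without Cre, and Nemo KO mice (3 arrays) from that line with Cre, which deletes Nemo in liver parenchymal cells. Cxcr6 KO mice (3 arrays) lacked Cxcr6 and carried no Cre, and double KO mice (3 arrays) lacked Cxcr6 and carried Cre. Nemo, the product of Ikbkg, is the regulatory subunit of the IκB kinase complex that activates NF-κB, and Cxcr6 is the receptor for the chemokine Cxcl16, carried mainly by lymphocytes. No source used here names the promoter that drives Cre, and loss of Cxcr6 cannot be told apart from other differences between the 2 mouse lines. The labels call the replicates biological without saying that each is a separate mouse, so p-values measure the spread between these samples.

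Cytochrome P450 enzymes of this family sit in the endoplasmic reticulum, take electrons from P450 oxidoreductase and cytochrome b5, and oxidise drugs, steroids, fatty acids and environmental chemicals. In liver, many Cyp2 genes depend on HNF4A and C/EBPA, several are induced through the xenobiotic receptors CAR (Nr1i3) and PXR (Nr1i2), and others differ between the sexes under the pattern of growth hormone release read by STAT5B. Cyp2e1 and several Cyp2c genes are typical of hepatocytes near the central vein, and Cyp2f2 of those near the portal tract.

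Start regions from RefSeq (build GRCm38.p6) were matched for 37 of the 45 members. Each is read here as the 250 bases before the annotated start, 5′ to 3′ in the direction of transcription. Cyp2b9 and Cyp2b13, both known as female-biased liver genes, are the members whose signals differed most between arrays, and they are shown whole because 248 of their 250 bases are identical. Capitals mark the 2 positions that differ.
Cyp2b9 (chr7:26173159-26173408, + strand): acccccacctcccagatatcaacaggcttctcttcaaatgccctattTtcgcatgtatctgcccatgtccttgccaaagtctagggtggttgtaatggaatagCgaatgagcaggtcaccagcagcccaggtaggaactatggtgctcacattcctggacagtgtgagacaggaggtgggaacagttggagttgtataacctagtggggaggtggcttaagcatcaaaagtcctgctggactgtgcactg
Cyp2b13 (chr7:26061245-26061494, + strand): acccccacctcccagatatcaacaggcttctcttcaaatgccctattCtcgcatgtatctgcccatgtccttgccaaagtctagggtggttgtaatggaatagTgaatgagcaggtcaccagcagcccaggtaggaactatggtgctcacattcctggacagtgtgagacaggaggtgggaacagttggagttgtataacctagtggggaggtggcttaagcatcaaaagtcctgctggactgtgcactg

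A 9-base sequence recognised by HNF4A, CAAAGTCCA, was searched on both strands. It lay in the start regions of 6 of the 37 members, all of them Cyp2c genes on chromosome 19, and in 126 of all 32851 start regions, or 0.384%. Its first base was 45 bases before the start in Cyp2c40, 64 in Cyp2c70, 75 in Cyp2c69, 77 in Cyp2c68, 116 in Cyp2c65 and 125 in Cyp2c67. These 6 are shown over 130 bases each, because 2 of the 3 members called changed below (Cyp2c65 and Cyp2c70) are among them. Capitals mark the 9 bases.
Cyp2c40 (chr19:39812815-39812944, - strand): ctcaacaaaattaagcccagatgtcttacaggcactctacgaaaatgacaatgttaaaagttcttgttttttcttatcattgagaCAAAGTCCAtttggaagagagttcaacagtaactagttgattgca
Cyp2c67 (chr19:39649043-39649172, - strand): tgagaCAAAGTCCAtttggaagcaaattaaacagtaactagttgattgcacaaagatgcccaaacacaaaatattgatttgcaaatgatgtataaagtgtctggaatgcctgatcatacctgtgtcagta
Cyp2c68 (chr19:39741102-39741231, - strand): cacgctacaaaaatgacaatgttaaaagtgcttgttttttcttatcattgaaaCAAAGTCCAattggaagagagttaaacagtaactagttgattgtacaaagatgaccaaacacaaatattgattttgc
Cyp2c69 (chr19:39886770-39886899, - strand): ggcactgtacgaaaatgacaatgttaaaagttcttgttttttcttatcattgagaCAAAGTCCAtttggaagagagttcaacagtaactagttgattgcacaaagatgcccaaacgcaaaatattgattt
Cyp2c65 (chr19:39060876-39061005, + strand): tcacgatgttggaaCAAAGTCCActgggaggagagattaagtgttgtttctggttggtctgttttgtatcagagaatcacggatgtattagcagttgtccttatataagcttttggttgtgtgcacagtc
Cyp2c70 (chr19:40187287-40187416, - strand): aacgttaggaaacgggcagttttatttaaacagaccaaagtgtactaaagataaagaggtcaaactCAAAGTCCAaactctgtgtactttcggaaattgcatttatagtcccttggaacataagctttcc

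The flanks of the capitals are alike in Cyp2c40, Cyp2c67, Cyp2c68 and Cyp2c69, so these genes are not independent examples. Over the 250 bases, Cyp2c68 and Cyp2c69 shared 91.3% of aligned positions, Cyp2c37 and Cyp2c50 84.3%, Cyp2a12 and Cyp2a22 82.8%, and Cyp2d9 and Cyp2d10 82.3%. The HNF1 core sequence GTTAAT was found in 5 of the 37 members (Cyp2a4, Cyp2c40, Cyp2c68, Cyp2c69 and Cyp2d26) against 6.432% of all start regions. The STAT site TTCNNNGAA was found in 2 (Cyp2j11 and Cyp2j12) against 7.02%, and the PAR bZIP site TTATGTAA in 0 against 0.819%. None of these matches overlapped the 9-base sequence in a member. A match describes letters and was not tested as a binding site. Close relatives can also share signal on an array, and how far the rows of Cyp2b9 and Cyp2b13, of the Cyp2c genes or of the Cyp2d genes do so was not tested.

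The deposited values are log2 signals, on which 1 unit is a doubling. Of the 45 members, 40 reached the level needed for testing, a highest group mean of at least 5.27, the median of all rows. Cyp2j11, Cyp2j12, Cyp2s1, Cyp2t4 and Cyp2w1 did not: Cyp2s1 ran from 4.92 to 5.37 over the 11 arrays, Cyp2t4 from 4.13 to 4.29 and Cyp2w1 from 4.72 to 4.99, and Cyp2j11 and Cyp2j12 lay between 4.64 and 5.19. Cyp2e1, which oxidises ethanol and acetaminophen, lay between 19.21 and 19.71 over the 11 arrays, near the highest value of the table, 19.93.

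The genotype labels could not be checked on the deleted genes. Ikbkg lay between 8.76 and 9.49 in the 6 arrays labelled as Nemo-deleted and between 9.02 and 9.47 in the other 5, and Cxcr6 lay between 4.94 and 5.56 in all 11. The mean signal of 11 hepatocyte markers was 18.67 to 18.91 in every array. Markers of other liver cells differed between groups: the mean of 12 endothelial markers was 6.375 to 6.999 in Cxcr6 KO, 6.98 to 7.04 in wildtype, 7.29 to 7.76 in Nemo KO and 8.04 to 8.90 in double KO. In RNA of a whole preparation, fewer cells of a type and less RNA per cell cannot be told apart.

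The 2 wildtype arrays disagreed over the Cyp2 genes more than any other pair of replicates, and this touches every comparison with wildtype. The mean absolute difference over the members was 1.05 log2 units between them, against 0.213 to 0.373 for the replicate pairs of the other groups. Over all rows the wildtype arrays correlated at 0.984 and the other pairs at 0.990 to 0.995. In 27 of the 40 members tested (67.5%) the wildtype gap was wider than the range of each of the other 3 groups, which held for 25.4% of all genes tested.

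**Figure D1:**
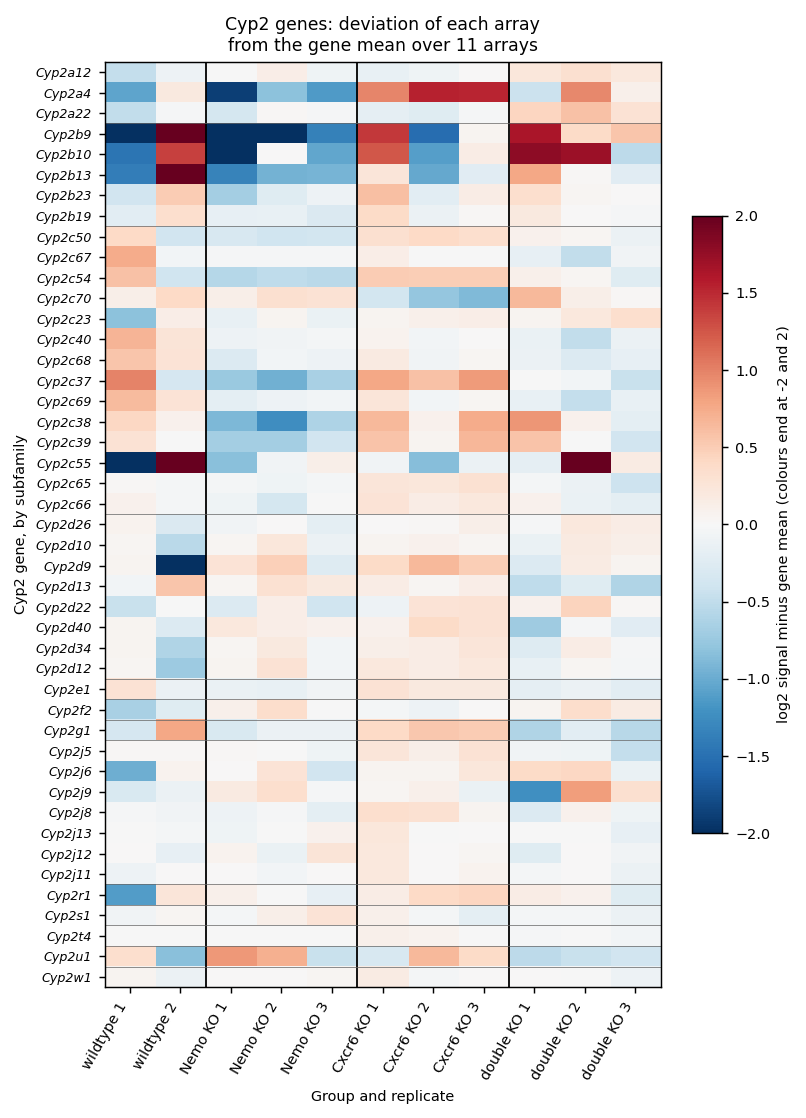
Heat map of the 45 Cyp2 genes (rows, ordered by subfamily) over the 11 arrays (columns, by group and replicate). Colour is the log2 signal minus the mean of that gene over all arrays, with colours ending at -2 and 2, and the 2 wildtype columns differ in colour for Cyp2b9, Cyp2b13, Cyp2c55 and Cyp2d9.

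Cyp2b9 and Cyp2b13 carried the widest of these gaps among the members, while those of Cyp2b19 and Cyp2b23 were 0.54 and 0.89 units. Cyp2b9 was at 7.62 and 16.49 in wildtype replicates 1 and 2, at 8.03, 7.95 and 8.96 in Nemo KO, at 11.73, 8.78 and 10.36 in Cxcr6 KO, and at 11.94, 10.70 and 10.88 in double KO. Wildtype replicate 1 was thus the lowest and replicate 2 the highest of the 11 arrays, 8.87 units or 467-fold apart. Cyp2b13, with the near-identical start region printed above, was at 6.09 and 12.51 in wildtype, at 6.14, 6.53 and 6.54 in Nemo KO, at 7.72, 6.45 and 7.25 in Cxcr6 KO, and at 8.25, 7.49 and 7.25 in double KO. Its order over the arrays was of the same kind, with a wildtype gap of 6.42 units.

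Cyp2b10, a textbook target of CAR and the standard readout of its activity, was at 8.82 and 11.65 in wildtype, 8.15, 10.29 and 9.25 in Nemo KO, 11.52, 9.18 and 10.43 in Cxcr6 KO, and 12.08, 11.99 and 9.76 in double KO. Its arrays spread over more than 1 unit in every group and all groups overlapped. Cyp2b19 (4.91 to 5.58) and Cyp2b23 (5.03 to 6.31) stayed near the level of the median row.

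Genes of other subfamilies shared the wildtype gap in both directions. Cyp2c55, a target of CAR and PXR, was at 7.40 and 13.65 in wildtype, at 9.78, 10.54 and 10.73 in Nemo KO, at 10.54, 9.77 and 10.50 in Cxcr6 KO, and at 10.44, 12.66 and 10.78 in double KO. Cyp2d9, a testosterone hydroxylase of the male liver, went the other way: it was at 17.85 and 15.80 in wildtype, and between 17.52 and 18.44 in the other 9 arrays. Wildtype replicate 2 lay above the 9 knockout arrays in 8 members (Cyp2b9, Cyp2b13, Cyp2c40, Cyp2c55, Cyp2c68, Cyp2c69, Cyp2d13 and Cyp2g1) and below them in 7 (Cyp2d9, Cyp2d10, Cyp2d12, Cyp2d26, Cyp2d34, Cyp2f2 and Cyp2u1). Wildtype replicate 1 lay above them in 7, all Cyp2c genes but for Cyp2e1, and below them in 10, Cyp2a12, Cyp2a22, Cyp2c23, Cyp2d22, Cyp2j6 and Cyp2r1 among these. Cyp2c40, Cyp2c68 and Cyp2c69 were above the 9 other arrays in both.

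Genes outside the family differed between the wildtype arrays too. Hsd3b5, a steroid dehydrogenase of the male liver, was at 13.64 in replicate 1 and 7.16 in replicate 2, and Mki67, a proliferation marker, at 5.35 and 11.18. The mean of 10 proliferation markers was 5.39 to 7.37 over the 2 wildtype arrays and 5.48 to 5.65 over the Cxcr6 KO arrays. The mean of 13 macrophage markers was 6.50 to 7.56 in wildtype. Xist was low (5.58 to 5.99) and the Y-linked Uty (9.89 to 10.47) and Eif2s3y (10.004 to 10.675) were well above the median row in all 11 arrays, which are all labelled male. The part of these genes in the Cyp2 values was not tested.

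**Figure D2:**
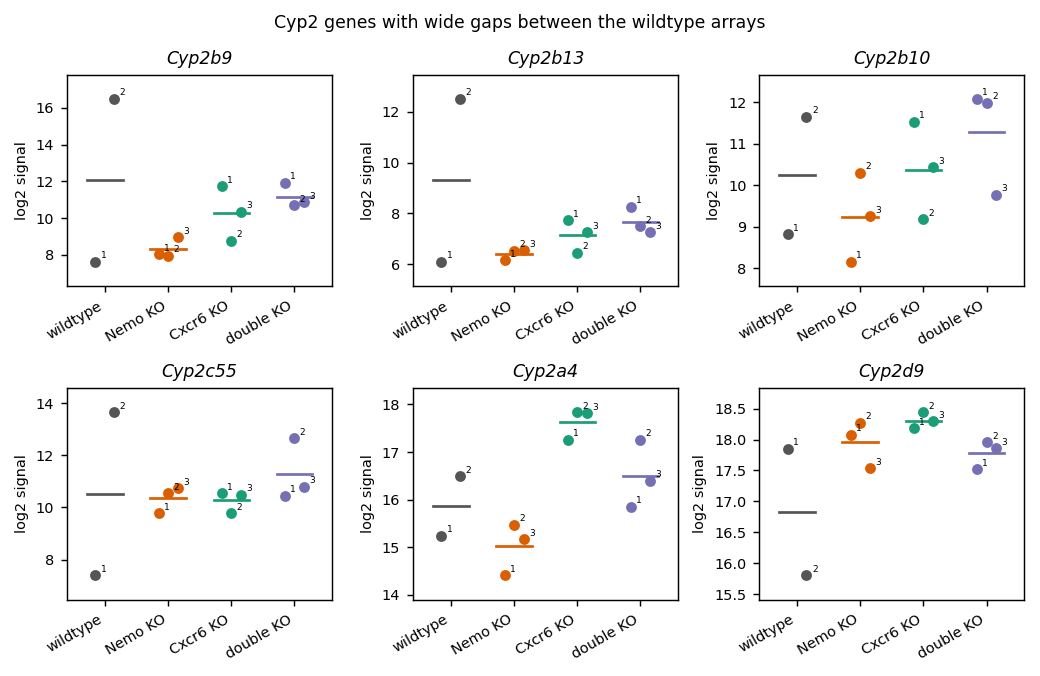
Log2 signal (vertical axes) of 6 Cyp2 genes in each array, by group (horizontal axes). Points are arrays with their replicate numbers and lines are group means, and the wildtype points of Cyp2b9 lie at 7.62 and 16.49.

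Nemo KO was compared with wildtype to ask what hepatocyte deletion of Nemo does while Cxcr6 is present. No Cyp2 gene passed 5% after adjustment in limma's fit over 18337 genes, in which 0.158% of all genes were called, and 10 of the 40 had an unadjusted p under 0.05, against 24.6% of all genes. With arrays centred on their medians, 4 of the 39 members tested passed (Cyp2c38, Cyp2c40, Cyp2c68 and Cyp2c69, all lower), which is 10.3%, against 7.22% of all genes in either direction and 6.73% downward. The median log2 fold change of the members was -0.07, against -0.04 over all genes. Subfamilies differed in sign: 13 of 14 Cyp2c genes and 5 of 5 Cyp2b genes had a lower mean in Nemo KO under every scaling tried, and 7 of 8 Cyp2d genes a higher one, or 5 with arrays centred on their medians and 6 after quantile normalization. Signs alone are not calls, and the means of all 3 subfamilies rest on the wildtype arrays that disagreed. Without wildtype replicate 1, Cyp2c50 and Cyp2c67 were positive (0.03 and 0.04) and Cyp2c23 negative (-0.21). Without replicate 2, Cyp2c55 and Cyp2c70 were positive (2.95 and 0.13). The other Cyp2c genes were negative in both fits. All 5 Cyp2b genes were negative without replicate 1 (-8.18 to -0.54) and positive without replicate 2 (0.0015 to 0.69).

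Every Nemo KO array lay below both wildtype arrays in 7 of the 40 members, against 24.7% of all genes. The 7 were Cyp2c genes (Cyp2c37, Cyp2c38, Cyp2c39, Cyp2c40, Cyp2c54, Cyp2c68 and Cyp2c69). Cyp2c37, an arachidonic acid oxidase typical of hepatocytes near the central vein, was at 17.90 and 16.57 in wildtype and at 16.17, 15.95 and 16.26 in Nemo KO, a difference of -1.11 ± 0.32 (SE) with adjusted p = 0.0896 in limma. Cyp2c38, an arachidonic acid epoxygenase, was at 14.14 and 13.82 in wildtype and at 12.83, 12.50 and 13.12 in Nemo KO, -1.16 ± 0.33 with adjusted p = 0.087 in limma. Cyp2c68 had the smallest adjusted p of the members, 0.0657 in limma at -0.56 ± 0.12. Every Nemo KO array lay above both wildtype arrays in 4 members (Cyp2a12, Cyp2d40, Cyp2f2 and Cyp2j9), against 11.3% of all genes. Cyp2f2, the naphthalene oxidase of periportal hepatocytes, was at 18.00 and 18.42 in wildtype, 18.77, 19.02 and 18.66 in Nemo KO, 18.62, 18.56 and 18.66 in Cxcr6 KO, and 18.71, 19.01 and 18.82 in double KO. Its Nemo KO difference was 0.60 ± 0.15 with adjusted p = 0.0775 in limma. Cyp2a12, a steroid hydroxylase, was at 18.07 and 18.45 in wildtype, 18.54, 18.68 and 18.46 in Nemo KO, 18.39, 18.45 and 18.54 in Cxcr6 KO, and 18.77, 18.86 and 18.76 in double KO. Its double KO arrays were the highest of the 11 and its first wildtype array the lowest.

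The calls differed with the array left out. Without wildtype replicate 2, limma called 13 of the 40 members (32.5%, against 12.9% of all genes): 8 fell (Cyp2c37, Cyp2c40, Cyp2c50, Cyp2c54, Cyp2c67, Cyp2c68, Cyp2c69 and Cyp2e1) and 5 rose (Cyp2a12, Cyp2c23, Cyp2c55, Cyp2f2 and Cyp2r1), while 11% of all genes fell and 1.96% rose. Among them Cyp2c37 fell by 1.77 ± 0.20, Cyp2c54 fell by 1.12 ± 0.14 and Cyp2r1, the vitamin D hydroxylase of the liver, rose by 1.10 ± 0.19. Without wildtype replicate 1, 5 members were called (12.5%, against 1% of all genes, of which 0.714% fell and 0.289% rose): Cyp2b9 fell by 8.18 ± 0.98, Cyp2b13 fell by 6.10 ± 0.50 and Cyp2g1 fell by 0.96 ± 0.17, while Cyp2d9 and Cyp2d12 rose by 2.16 ± 0.28 and 0.83 ± 0.14. No member was called against both single arrays. Without Nemo KO replicate 3, Cyp2c68 was called lower (1 of 40 members, 2.5%, against 5.58% of all genes in either direction and 4.79% downward). Where a lone wildtype array is left, it is assumed to vary like the other groups.

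**Figure D3:**
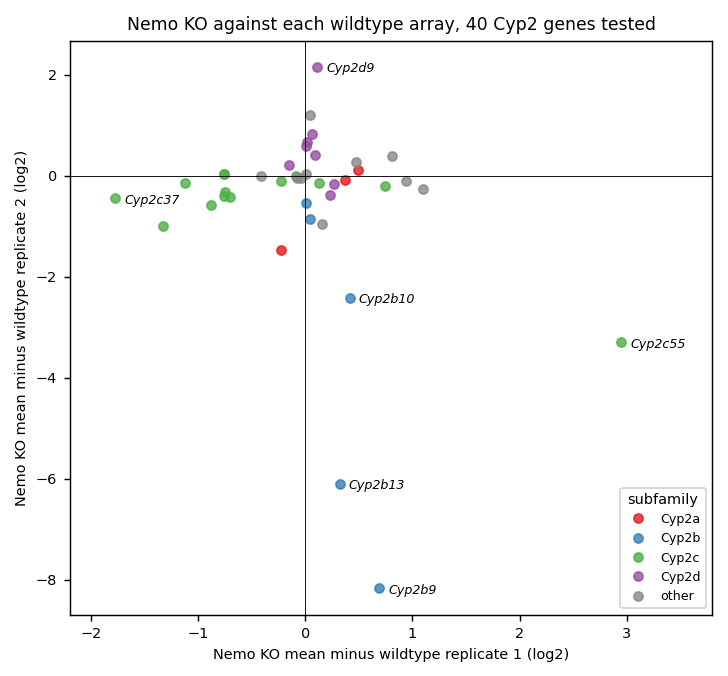
Nemo KO mean minus the signal of wildtype replicate 1 (horizontal axis, log2 units) and of wildtype replicate 2 (vertical axis, log2 units) for the 40 Cyp2 genes tested, coloured by subfamily. Points off the diagonal change with the wildtype array: Cyp2c55 is positive against replicate 1 and negative against replicate 2, and Cyp2b9 lies far below zero only against replicate 2.

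Double KO was compared with Nemo KO to ask what Cxcr6 loss changes once Nemo is deleted, with no wildtype array among the means. No member was called in limma, against 0.594% of all genes, and 7 of 40 had an unadjusted p under 0.05, against 16.8%. The members' median log2 fold change was 0.03, against 0.04 over all genes. All 3 Cyp2a and all 5 Cyp2b genes had a higher mean in double KO under each of the 3 scalings, with medians of 0.56 and 1.26. Every double KO array lay above every Nemo KO array in 11 of 40 members (27.5%, against 12.9% of all genes): Cyp2a4, Cyp2a12, Cyp2a22, Cyp2b9, Cyp2b13, Cyp2b19, Cyp2b23, Cyp2c37, Cyp2c38, Cyp2c50 and Cyp2c54. The reverse held in 4 (Cyp2c40, Cyp2c67, Cyp2d13 and Cyp2d40), against 9.94%.

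Cyp2a4, a testosterone hydroxylase of the female liver, was at 14.41, 15.47 and 15.16 in Nemo KO and at 15.85, 17.26 and 16.39 in double KO. The groups did not overlap, and the difference was 1.48 ± 0.44 with adjusted p = 0.162 in limma. Cyp2c38 was at 12.83, 12.50 and 13.12 in Nemo KO and at 14.62, 13.82 and 13.54 in double KO, 1.18 ± 0.29 with adjusted p = 0.121. Cyp2b9, at 7.95 to 8.96 in Nemo KO and 10.70 to 11.94 in double KO, differed by 2.86 ± 1.82 with adjusted p = 0.443. The SE of Cyp2b9 draws on the spread within all 4 groups, the wildtype pair included. With the spread taken from the 9 knockout arrays alone, an alternative added after the data were seen, 1 member was called, against 0.878% of all genes in either direction and 0.256% downward. It was Cyp2d13, a close relative of Cyp2d9, which fell by 0.63 ± 0.11 in double KO, with adjusted p = 0.0477 in limma. With only the Nemo KO and double KO arrays in the fit, 0 members and 0.06% of all genes were called.

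**Figure D4:**
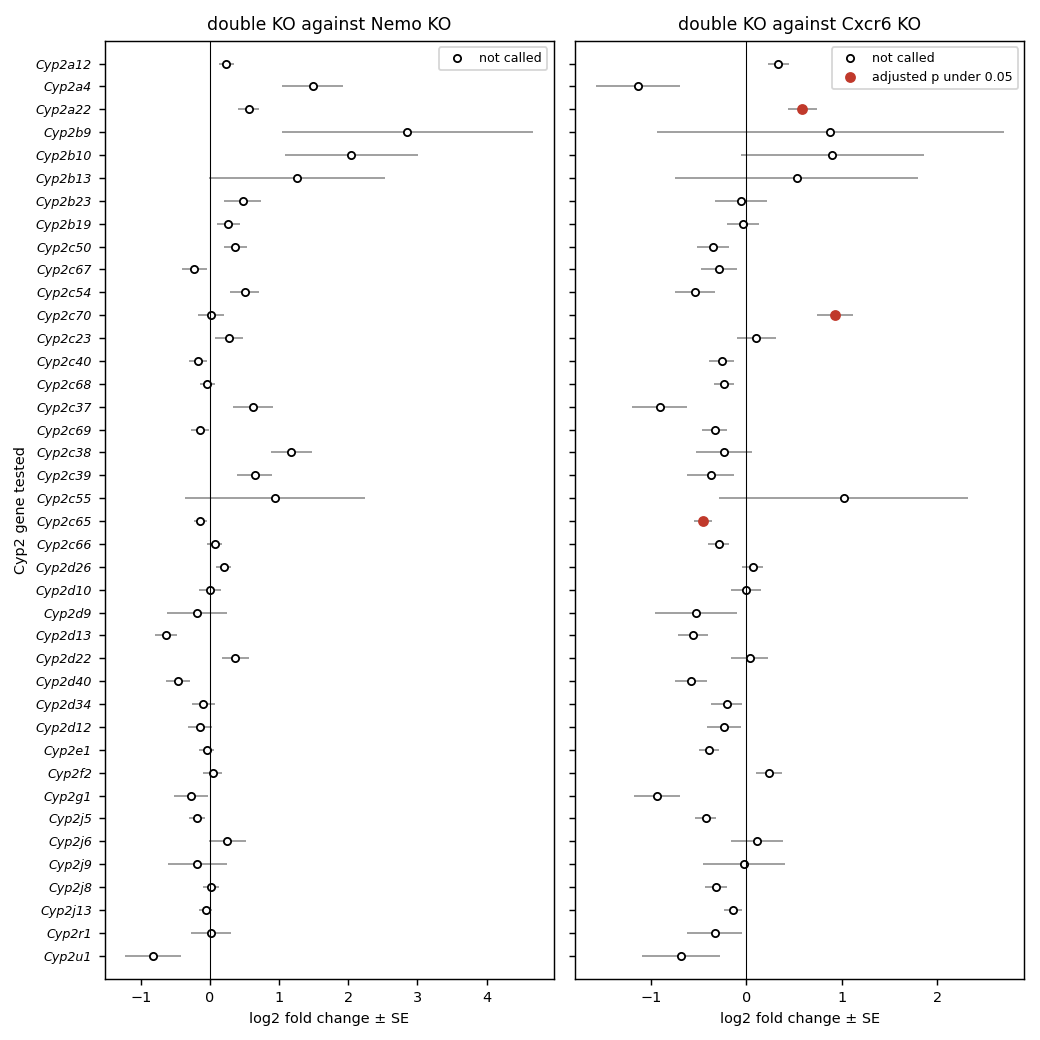
Log2 fold change ± SE (horizontal axes) of the 40 Cyp2 genes tested (vertical axis, by subfamily) in double KO against Nemo KO and in double KO against Cxcr6 KO. Filled points passed 5% after adjustment in limma, which Cyp2a22, Cyp2c65 and Cyp2c70 did in the second panel and no gene did in the first.

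Double KO was compared with Cxcr6 KO to ask what Nemo deletion does in the absence of Cxcr6. Here 3 members were called, a share close to that of all genes. Cyp2c70, which makes muricholic acids from chenodeoxycholic acid, rose by 0.93 ± 0.19, or 1.91-fold, with adjusted p = 0.0246 in limma. Cyp2a22 rose by 0.59 ± 0.15 with adjusted p = 0.0476, and Cyp2c65, best known from the intestine, fell by 0.45 ± 0.10 with adjusted p = 0.0308. The 3 of 40 members are 7.5%, against 7.41% of all genes, of which 3.44% rose and 3.96% fell, and 15 of 40 had an unadjusted p under 0.05, against 29.1% of all genes.

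The arrays of these 3 genes place the difference in different groups. Cyp2c70 was at 17.25, 16.84 and 16.73 in Cxcr6 KO, and at 18.25, 17.73 and 17.63 in double KO, 17.73, 17.93 and 17.90 in Nemo KO, and 17.73 and 18.01 in wildtype. The 3 Cxcr6 KO arrays were thus below the other 8. Cyp2c65 was at 6.35, 6.34 and 6.42 in Cxcr6 KO, 6.07, 5.99 and 5.70 in double KO, 6.07, 6.04 and 6.07 in Nemo KO, and 6.15 and 6.07 in wildtype, so its Cxcr6 KO arrays were above the other 8 by a small margin. All 11 values, 5.70 to 6.42, are near the filter level of 5.27. Cyp2a22 was at 16.70, 16.86 and 16.56 in double KO, 16.09, 16.03 and 16.24 in Cxcr6 KO, 15.92, 16.28 and 16.24 in Nemo KO, and 15.77 and 16.24 in wildtype. For Cyp2a22 it was the double KO arrays that stood above the other 8.

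Leaving out 1 array at a time ended calls. None of the 3 was called without Cxcr6 KO replicate 2, Cxcr6 KO replicate 3, double KO replicate 2 or double KO replicate 3. In that order, these fits called 1.1%, 0.633%, 2.91% and 1.11% of all genes, against 7.41% with all arrays. Without Cxcr6 KO replicate 1, Cyp2c70 alone was called (2.5% of the members, against 2.87% of all genes). Without double KO replicate 1, Cyp2c65, Cyp2c70 and Cyp2j5 were called (7.5%, against 6.85% of all genes). Cyp2a22 missed 5% in each such fit that left out an array of either group, with adjusted p between 0.0799 and 0.137 in limma.

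Most of the other members had a lower signal in double KO than in Cxcr6 KO. The median log2 fold change was -0.23 over the members and -0.06 over all genes, and 28 of 40 members were negative, or 24 with arrays centred and 26 after quantile normalization. Every double KO array lay below every Cxcr6 KO array in 19 of 40 members (47.5%, against 24.4% of all genes): 9 Cyp2c genes (Cyp2c37, Cyp2c40, Cyp2c50, Cyp2c54, Cyp2c65, Cyp2c66, Cyp2c67, Cyp2c68 and Cyp2c69), 4 Cyp2d genes (Cyp2d9, Cyp2d12, Cyp2d13 and Cyp2d40), Cyp2a4, Cyp2e1, Cyp2g1, Cyp2j5, Cyp2r1 and Cyp2u1. The opposite held in 4 (Cyp2a12, Cyp2a22, Cyp2c70 and Cyp2f2), against 13.3%. Cyp2d10, Cyp2d22 and Cyp2d26 overlapped and differed by 0.00 to 0.07. Cyp2d26 had the highest mean of the Cyp2d genes, at 18.02, 18.04 and 18.13 in Cxcr6 KO, 17.99, 18.23 and 18.16 in double KO, 17.94, 18.03 and 17.83 in Nemo KO, and 18.09 and 17.73 in wildtype.

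The pericentral Cyp2 list had 4 members tested, and none passed 5% in limma. Cyp2e1 was at 19.71, 19.61 and 19.61 in Cxcr6 KO, 19.24, 19.30 and 19.21 in double KO, 19.29, 19.26 and 19.35 in Nemo KO, and 19.71 and 19.30 in wildtype. Its difference was -0.39 ± 0.10 with adjusted p = 0.0526. Cyp2c37 was at 17.69, 17.50 and 17.76 in Cxcr6 KO and 16.91, 16.86 and 16.47 in double KO, -0.91 ± 0.29 with adjusted p = 0.0813. Cyp2c50 and Cyp2c54, relatives of Cyp2c37 that also oxidise arachidonic acid, had differences of -0.35 ± 0.17 and -0.53 ± 0.21. Cyp2c50 was at 18.69, 18.78 and 18.71 in Cxcr6 KO, 18.46, 18.42 and 18.25 in double KO, 18.05, 17.97 and 18.01 in Nemo KO, and 18.77 and 17.98 in wildtype. All 4 were lower in every double KO array. The list's median was -0.46, and Cyp2f2, the periportal member, was at 0.24 ± 0.14 with adjusted p = 0.28.

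Spread taken from fewer arrays changed the number of calls. With only the Cxcr6 KO and double KO arrays in the fit, limma called 10 members (25%, against 15.1% of all genes): Cyp2a12, Cyp2a22 and Cyp2c70 rose, and Cyp2c37, Cyp2c50, Cyp2c54, Cyp2c65, Cyp2d13, Cyp2e1 and Cyp2g1 fell. Of all genes, 4.74% rose and 10.3% fell in that fit. With the spread of the 9 knockout arrays, these 10 were called again with Cyp2j5, which fell, as an 11th (27.5%, against 12.8% of all genes, with 5.32% up and 7.5% down). Cyp2g1, a steroid hydroxylase of the olfactory epithelium, was at 6.65, 6.79 and 6.76 in Cxcr6 KO and 5.65, 6.05 and 5.70 in double KO, and fell by 0.93 ± 0.12 in the latter fit. It was at 5.96, 6.14 and 6.14 in Nemo KO and at 5.92 and 7.03 in wildtype. The wildtype arrays held the full range of the Nemo KO group between them. The signal of Cyp2g1 was low, 5.65 to 7.03 over all arrays, not far above the filter level of 5.27. Cyp2j5, an epoxygenase of liver and kidney, was at 17.68, 17.57 and 17.73 in Cxcr6 KO, 17.37, 17.36 and 16.97 in double KO, 17.46, 17.44 and 17.36 in Nemo KO, and 17.46 in both wildtype arrays.

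**Figure D5:**
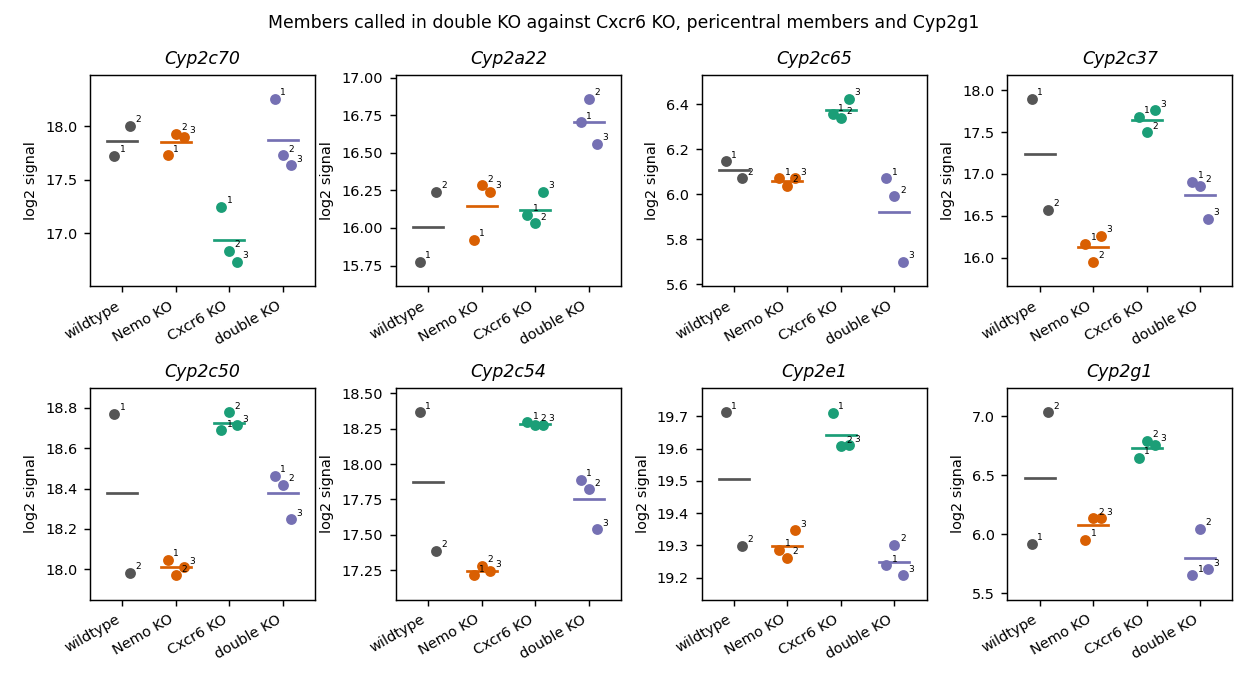
Log2 signal (vertical axes) of 8 Cyp2 genes in each array, by group (horizontal axes): the 3 called in double KO against Cxcr6 KO, the 4 pericentral members tested and Cyp2g1. Points are arrays with their replicate numbers and lines are group means, and in Cyp2c70 the 3 Cxcr6 KO points lie between 16.73 and 17.25, below all others.

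Other liver cells and regulators moved in the same comparison, in which 3.44% of all genes rose and 3.96% fell. Between Cxcr6 KO and double KO, 11 of 12 endothelial markers rose (Lyve1 by 1.46 ± 0.12), as did 7 of 9 stellate cell markers (Dcn by 3.70 ± 0.42), 5 of 13 macrophage markers (Lyz2 by 2.69 ± 0.45) and 2 of 7 cholangiocyte markers (Tspan8 by 1.64 ± 0.17), while 0 of 11 hepatocyte markers did, at a median of 0.02. Array means cover every marker with a row, tested or not: 12 stellate, 13 macrophage and 9 cholangiocyte markers. Their ranges were 5.56 to 5.66 against 6.28 to 7.01 for stellate and 6.90 to 7.20 against 7.97 to 8.94 for macrophage markers. For cholangiocyte markers they were 5.35 to 5.52 against 5.63 to 6.2. Proliferation markers had 0 of 10 called, with array means of 5.48 to 5.65 in Cxcr6 KO and 6.28 to 8.07 in double KO. T, NK and B cell markers and neutrophil markers had 0 of 4 and 0 of 3 called. The part of these cells in the Cyp2 differences was not tested.

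In this comparison 7.41% of all genes were called in either direction. Of 4 genes tested from a list of P450 redox partners (Cyb5b, Cyb5r3, Pgrmc1 and Fdx1), 1 was called. Cyb5b, a member of the cytochrome b5 family, fell by 0.93 ± 0.19 (adjusted p = 0.0241 in limma). It went from 13.11, 12.95 and 13.11 in Cxcr6 KO to 12.47, 12.06 and 11.85 in double KO. Whether any of the 4 passes electrons to Cyp2 enzymes was not tested. Por, the oxidoreductase itself, has no value here. Of 13 xenobiotic receptors and partners, Ppara, the fatty acid receptor, fell by 1.28 ± 0.16 (adjusted p = 0.00856). Nr1i3 (CAR) differed by -1.05 ± 0.36 with adjusted p = 0.0959, and Nr1i2 (PXR) by -0.01 ± 0.32. Of 11 hepatocyte transcription factors, Cebpa fell by 1.57 ± 0.39 (adjusted p = 0.0453), while Hnf4a differed by -0.30 ± 0.18.

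The clock and PAR bZIP regulators, which set daily rhythms of many P450 genes, had 4 of 8 called, against 7.41% of all genes. Arntl rose by 2.65 ± 0.65, while Dbp fell by 3.25 ± 0.83, Hlf fell by 1.05 ± 0.20 and Nr1d2 fell by 1.83 ± 0.46. No source used here gives the time of day of sampling, and its part in the Cyp2 values was not tested. Stat5b differed by 0.22 ± 0.15 and Bcl6, a repressor of female-type genes in male liver, by -0.49 ± 0.82. Cux2, a female-type regulator, lay between 4.85 and 5.04 in all arrays and was not tested.

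Cxcr6 KO was compared with wildtype for the effect of Cxcr6 loss, or of the line, with Nemo present. No member was called in limma, against 0.256% of all genes, and 11 of 40 had an unadjusted p under 0.05, against 11.1%. The members' median was 0.23, against 0.01 over all genes, and 31 of 40 were positive, or 30 after quantile normalization. Every Cxcr6 KO array lay above both wildtype arrays in 10 members (Cyp2a4, Cyp2c65, Cyp2c66, Cyp2d9, Cyp2d12, Cyp2d34, Cyp2d40, Cyp2f2, Cyp2j5 and Cyp2j8), against 12.7% of all genes, and below both in 4 (Cyp2c40, Cyp2c68, Cyp2c69 and Cyp2c70), against 11.2%. Cyp2a4 was at 15.24 and 16.49 in wildtype and at 17.26, 17.84 and 17.81 in Cxcr6 KO, 1.77 ± 0.49 with adjusted p = 0.193 in limma. Cyp2c70 differed by -0.92 ± 0.21 with adjusted p = 0.14. This comparison and the one before share the Cxcr6 KO arrays, so their values for a gene are not independent.

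The calls here too differed with the wildtype array left out. Without replicate 1, 7 members were called (17.5%, against 2.65% of all genes, with 1.35% up and 1.3% down): Cyp2c37, Cyp2c50, Cyp2c54, Cyp2d9 and Cyp2d12 rose, and Cyp2b9 and Cyp2b13 fell. Without replicate 2, the 2 called were Cyp2c23 and Cyp2r1, which rose by 0.91 ± 0.13 and 1.44 ± 0.19 (5%, against 1.95% of all genes in either direction and 0.665% upward). Cyp2r1 was at 10.10 and 11.46 in wildtype, 11.32, 11.21 and 11.06 in Nemo KO, 11.37, 11.61 and 11.64 in Cxcr6 KO, and 11.37, 11.30 and 10.97 in double KO. Replicate 1 of wildtype stood below all others. Each of these fits left a lone wildtype array, which was assumed to vary like the other groups.

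Whether the Nemo effect differed with Cxcr6 was tested as an interaction, the effect in the absence of Cxcr6 minus that in its presence. No member and 0% of all genes were called in limma, and 6 of 40 members had an unadjusted p under 0.05, against 11.8% of all genes. The members' median was -0.07 and that of all genes 0.04. Cyp2d40 was at 12.59 and 12.26 in wildtype, 12.74, 12.67 and 12.61 in Nemo KO, 12.62, 12.92 and 12.82 in Cxcr6 KO, and 11.82, 12.50 and 12.31 in double KO. It was higher in every array with Nemo deletion in the presence of Cxcr6 and lower in every one in its absence. The interaction was -0.83 ± 0.26 with adjusted p = 0.301 in limma, and that of Cyp2c70 was 0.94 ± 0.28 with adjusted p = 0.283. Without wildtype replicate 1, 4 members passed (10%, against 1.25% of all genes, with 0.703% positive and 0.551% negative): Cyp2b9 and Cyp2b13 with positive and Cyp2d9 and Cyp2d12 with negative values. Without replicate 2, Cyp2r1 alone passed (2.5%, against 0.48% of all genes and 0.0763% in that direction), at -1.42 ± 0.23.

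The sex-biased members were described as lists. The 10 female-biased ones were Cyp2a4, Cyp2a22, Cyp2b9, Cyp2b10, Cyp2b13, Cyp2c38, Cyp2c39, Cyp2c40, Cyp2c69 and Cyp2g1. In double KO against Nemo KO, Cyp2c40, Cyp2c69 and Cyp2g1 had a lower mean and the other 7 a higher one. Of the 10 female-biased Cyp2 genes, Cyp2a22 rose in double KO against Cxcr6 KO and no other was called in any of the 5 comparisons. Their medians were -0.79 in Nemo KO against wildtype, 0.91 in double KO against Nemo KO, -0.25 in double KO against Cxcr6 KO and 0.13 in Cxcr6 KO against wildtype. The values against wildtype depended on its arrays: without replicate 2 the median was -0.03 in Nemo KO and 0.58 in Cxcr6 KO, and without replicate 1 it was -0.98 and -0.23. Of the 2 male-biased members, Cyp2d9 and Cyp2u1, none was called. Cyp2u1, a fatty acid hydroxylase, was at 10.89 and 9.72 in wildtype, 11.41, 11.26 and 10.12 in Nemo KO, 10.23, 11.20 and 10.94 in Cxcr6 KO, and 10.03, 10.11 and 10.17 in double KO, which was the group with the least spread.

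Sex-biased genes outside the family had calls in both directions. In double KO against Cxcr6 KO, where 3.96% of all genes fell and 3.44% rose, 4 of 16 male-biased genes fell. Slco1a1, an organic anion transporter, fell by 2.53 ± 0.31, Serpina1e fell by 0.61 ± 0.11 and Gstp1 fell by 1.02 ± 0.22. Of 11 female-biased genes Acot3 and Tox fell while Ntrk2 rose. In double KO against Nemo KO, where 0.594% of all genes were called (67 higher, 42 lower), 3 of 16 male-biased genes fell. Slc22a28 fell by 0.95 ± 0.10 and Slco1a1 fell by 2.14 ± 0.31, and Selenbp2 rose by 1.96 ± 0.21, while 0 of 11 female-biased genes changed. Selenbp2 also rose in Cxcr6 KO against wildtype, by 2.10 ± 0.24.

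The Cyp2 targets of CAR and PXR (Cyp2b10, Cyp2c37, Cyp2c50, Cyp2c54 and Cyp2c55 tested) had no call in any comparison. All 5 had a higher mean in double KO than in Nemo KO, with a median of 0.62. In Cyp2b10 and Cyp2c55 the arrays of the groups overlapped. Cyp2c37, Cyp2c50 and Cyp2c54 are also on the pericentral list and Cyp2b10 on the female-biased list, so the lists are not independent. Of 18 targets of these receptors outside the family, 17 had a higher mean in double KO than in Nemo KO. Their median was 0.41, against 0.04 over all genes. Of the 18, 1 was called, against 0.594% of all genes: Gstt1, a glutathione transferase, rose by 1.21 ± 0.16 (adjusted p = 0.0246 in limma).

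The remaining members are given by their arrays or their range. Cyp2a12, a bile acid hydroxylase, was at 18.07 and 18.45 in wildtype, 18.54, 18.68 and 18.46 in Nemo KO, 18.39, 18.45 and 18.54 in Cxcr6 KO, and 18.77, 18.86 and 18.76 in double KO, where it was above all other arrays. Its difference between double KO and Cxcr6 KO was 0.33 ± 0.11 with adjusted p = 0.0869 in limma. Cyp2d26 lay between 17.73 and 18.23 and Cyp2c67 between 17.54 and 18.78. Cyp2c39 ran from 10.08 to 11.43, Cyp2j6 from 11.75 to 13.14 and Cyp2j9 from 8.6 to 10.67, the last with both ends in double KO. Cyp2j8 (5.65 to 6.26), Cyp2j13 (5.03 to 5.42) and Cyp2c66 (5.11 to 5.73) stayed near the median row.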

How the data were processed

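The authors' deposited values are log2 signals, 1 per array row, made with Affymetrix Expression Console, RMA and Transcriptome Analysis Console per the submitters' processing notes. RMA is a method that corrects background, normalises quantiles and summarises probes. For each array, the labels' protocols give an input of 300 ng RNA. The table has 65956 rows, of which 30604 have 1 gene symbol in the platform annotation, 2146 several and 33206 none. Symbols were updated by gene identifier against RefSeq (GRCm38.p6), which changed no Cyp2 name.

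Per gene, the row with the highest mean was used, and 18337 genes passed the filter at 5.27. All 11 arrays in 4 groups were fitted with limma 3.58.1 (R 4.3.3, lmFit and eBayes, 7 residual degrees of freedom), two-sided, with Benjamini-Hochberg adjustment over all genes tested, and calls were made at 5%. Errors are standard errors of this fit. The fit was tested on simulated data with changes planted in the double KO arrays. No change was thus planted between wildtype and Nemo KO or Cxcr6 KO. Arrays have no read depth, and their number limits the precision.

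The members and all gene lists were chosen with earlier results of these data known. Every member is named. Array values were given by rule for called members and for the member with the highest mean in each subfamily, with ranges for those not tested, and for others after their values were seen. Outside the family, fixed regulators and up to 3 called genes per list and comparison were named. Alternatives were another scaling, filter, spread, replicate block and leaving out each array of the groups compared.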

Additional observations from a re-analysis of the deposited data

How the results depend on the processing

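In Nemo KO against wildtype, 4 members were called with each array centred on its median (Cyp2c38, Cyp2c40, Cyp2c68 and Cyp2c69, all lower, 10.3% of members against 7.22% of all genes), and 0 to 13 when 1 array was left out. In double KO against Nemo KO, 1 was called with the replicate block (Cyp2a4, higher, 2.5% against 0.333%), 1 with the spread of the 9 knockout arrays (2.5% against 0.878%), and 0 to 0 when 1 array was left out. In double KO against Cxcr6 KO, where 3 were called, the count was 7 after quantile normalization (3 higher and 4 lower, 17.9% against 9.58% of all genes), 5 with the stricter filter (14.3% against 12.3%), 5 with the replicate block (12.5% against 8.22%), 10 with only the groups compared (25% against 15.1%), 11 with the spread of the 9 knockout arrays (27.5% against 12.8%), and 0 to 3 when 1 array was left out. In Cxcr6 KO against wildtype, 1 was called with the replicate block (Cyp2a4, higher, 2.5% against 0.131%) and 0 to 7 when 1 array was left out. The interaction gave 0 to 4. Only arrays of the groups compared were left out, so no wildtype array was left out alone in double KO against Nemo KO or Cxcr6 KO. Cyp2a22 missed 5% in limma without a filter (adjusted p = 0.067) and with a trended, robust fit (0.0645). The cause of these changes was not tested. The 3 called values kept their sign in every alternative run. The arrays of double KO and Cxcr6 KO did not overlap for these genes, so leaving out 1 array could not change the sign. Another filter or spread leaves the group means as they are. The members' median, -0.07 in the interaction, was 0.12 with centring and 0.045 after quantile normalization, and -0.07 in Nemo KO against wildtype became 0.03 without wildtype replicate 2. With the replicate block, the 3 genes called in double KO against Cxcr6 KO were called again, with Cyp2a4 and Cyp2g1 lower. Deviations of same-numbered arrays from their group means correlated at -0.272 to 0.275, and 2 of 9 arrays correlated best with their own number, so the numbers were not taken to pair arrays.

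Over all genes, Nemo KO against wildtype had 29 calls, and 1319 with centring, 85 with the stricter filter, 11 after quantile normalization, 11 with trend, 7 with no filter, 0 with the block, 0 with only the groups compared, and 3 to 2369 without 1 array. Double KO against Nemo KO had 109 (67 higher, 42 lower), and 201 with centring (174 higher, 27 lower), 61 with the block, 11 with only the groups compared, and 19 to 102 without 1 array. Double KO against Cxcr6 KO had 1358, and 2766 with only the groups compared, 2352 with the 9-array spread, and 116 to 1257 without 1 array. Cxcr6 KO against wildtype had 47, and 28 with centring, 24 without a filter, 24 with the block, 0 with only the groups compared, and 8 to 486 without 1 array. The interaction had 0, and 0 to 230 without 1 array. Centring moved the all-gene median from 0.04 to 0.16 in double KO against Nemo KO and from 0.04 to 0.17 in the interaction. The number of arrays limits what these fits can show.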
